A study of Mus musculus with 272 samples.

Results

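Unmarked intergenic open chromatin in mouse muscle stem cells (MuSCs) comprised 15727 regions, 17.8% of the 88575 ATAC-seq peaks found in both replicates and 11.2% of the 140716 peaks of replicate 1 on the assembled chromosomes. The regions were selected on measured peak positions: each was an ATAC-seq peak of replicate 1 that overlapped a peak of replicate 2 by at least 1 bp, lay more than 3 kb from every transcription start site (TSS) and outside every gene body of GENCODE M21 (mm10), and overlapped no peak of H3K4me3, H3K27ac or H3K27me3 in either replicate. The peak lists came from 8 libraries, 2 replicates each of ATAC-seq and of the 3 histone marks. The cells were GFP+ MuSCs sorted from the hindlimb muscle of Pax7Cas9 mice, in which Pax7Cre switches on Cas9 and EGFP from the Rosa26 locus, so the sort takes cells with a history of Pax7 expression. All 8 libraries share this genotype, and their labels give no age, strain, treatment or condition. Neither the labels nor the methods say that the 2 replicates of an assay came from separate animals, so the spread between them may be technical. Only peak lists were used here, so the read depth behind each peak is unknown, and "unmarked" means that no peak of the 3 marks was listed there. No comparison in these lists was between conditions, and regions are not replicates, so the values are descriptions without tests.

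MuSCs are the resident stem cells of skeletal muscle, lying quiescent beside the fibre until injury and depending on the transcription factor Pax7. ATAC-seq uses the Tn5 transposase to cut DNA that is not wrapped tightly in nucleosomes. H3K4me3 is the histone mark of promoters, H3K27ac that of active promoters and enhancers, and H3K27me3 that of Polycomb repression. Open sites away from genes that lack these marks are known to include sites bound by CTCF, the zinc finger protein that anchors chromatin loops and boundaries, and enhancers that are not acetylated in the cells studied. AP-1, the Fos and Jun dimer, and the myogenic E-box factors MyoD and myogenin are among the proteins that bind such sites in muscle cells.

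The sequences below are shown because the results turn on them: 2 of the regions with the highest ATAC-seq enrichment, the strongest region of each of 4 muscle genes, and the strongest region that matched the CTCF core. Strength is ranked here and throughout by the lower fold enrichment of the 2 replicates. The 4 muscle genes were picked from 19 after their values were seen. Each sequence is 200 bp centred on the replicate 1 summit, read 5′ to 3′ on the plus strand of the RefSeq GRCm38.p6 (mm10) genome, and each peak lies outside every annotated gene. Capitals mark 1 match of each motif found, the nearest to the summit on the plus strand or, where that strand has none, on the minus strand. The strongest region (chr7:92538959-92539158) lay 22090 bp upstream of Ccdc90b, and its capitals mark a TEAD match. Another (chr1:79330963-79331162), 108979 bp from Scg2, held a TEAD and an NFI match. The Pax7 region (chr4:139858751-139858950) held a CTCF core on the minus strand. The Myod1 region (chr7:46341614-46341813) held an E-box and an AP-1 match. The Myog region (chr1:134265954-134266153) held an E-box, and the Mef2a region (chr7:67390859-67391058) held AP-1 and RUNX matches. The strongest region with a CTCF core (chr1:135753037-135753236) lay 12982 bp upstream of Phlda3.
Strongest, near Ccdc90b: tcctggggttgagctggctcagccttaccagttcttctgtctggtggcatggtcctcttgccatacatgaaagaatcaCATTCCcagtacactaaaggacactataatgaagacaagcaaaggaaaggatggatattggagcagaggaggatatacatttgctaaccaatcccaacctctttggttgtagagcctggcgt
Another, near Scg2: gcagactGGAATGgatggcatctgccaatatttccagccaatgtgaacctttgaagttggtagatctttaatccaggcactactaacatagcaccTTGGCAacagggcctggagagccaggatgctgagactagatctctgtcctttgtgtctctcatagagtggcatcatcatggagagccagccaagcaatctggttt
Pax7 region: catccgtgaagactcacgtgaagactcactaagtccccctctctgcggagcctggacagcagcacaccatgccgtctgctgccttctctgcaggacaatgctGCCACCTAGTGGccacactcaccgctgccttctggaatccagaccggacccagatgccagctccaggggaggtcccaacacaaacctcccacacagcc
Myod1 region: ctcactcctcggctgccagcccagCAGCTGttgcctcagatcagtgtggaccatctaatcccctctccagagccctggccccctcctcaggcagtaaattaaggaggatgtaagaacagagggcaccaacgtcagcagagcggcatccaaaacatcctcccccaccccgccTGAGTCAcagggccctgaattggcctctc
Myog region: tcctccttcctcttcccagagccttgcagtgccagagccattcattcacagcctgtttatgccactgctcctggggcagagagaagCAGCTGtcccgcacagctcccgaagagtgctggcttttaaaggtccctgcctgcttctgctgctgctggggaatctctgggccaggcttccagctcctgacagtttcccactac
Mef2a region: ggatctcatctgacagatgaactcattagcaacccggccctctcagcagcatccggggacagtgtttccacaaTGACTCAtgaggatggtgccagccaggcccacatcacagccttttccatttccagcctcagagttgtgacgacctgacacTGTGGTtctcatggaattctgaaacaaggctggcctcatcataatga
CTCF core region near Phlda3: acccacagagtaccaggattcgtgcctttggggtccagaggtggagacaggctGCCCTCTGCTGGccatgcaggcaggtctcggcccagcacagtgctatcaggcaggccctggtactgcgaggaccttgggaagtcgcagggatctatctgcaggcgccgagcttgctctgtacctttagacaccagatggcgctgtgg

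Most open chromatin away from genes carried none of the 3 marks. Of the 20338 shared ATAC-seq peaks that were intergenic, 77.3% were unmarked, as were 79.2% of shared peaks in gene bodies and 28.3% of those within 3 kb of a TSS. H3K27ac was the mark most often found on the intergenic peaks left out, on 3162 of them, followed by H3K4me3 on 2530 and H3K27me3 on 117. The listed H3K27me3 peaks were narrow, with median widths of 176 bp in replicate 1 and 181 bp in replicate 2. Those of H3K4me3 were 1158 and 1027 bp wide. A member between listed H3K27me3 peaks counts as unmarked, and 3.89% of members lay within 10 kb of one. The number of members rested on the use of both replicates. With the ATAC-seq and mark lists of replicate 1 alone there were 33465 unmarked intergenic peaks, and with those of replicate 2 alone 19733.

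The members were narrow peaks of modest enrichment. Their median width was 148 bp in replicate 1 and 190 bp in replicate 2, against 250 and 337 bp for the 3162 intergenic peaks with H3K27ac and 146 and 187 bp for the 22385 unmarked peaks in gene bodies. Fold enrichment, the summit's signal over the local background as the peak caller gave it, had a median of 6.33 in replicate 1, with quartiles of 4.86 and 8.85, and of 6.47 in replicate 2, with quartiles of 4.94 and 8.91. Intergenic peaks with H3K27ac had medians of 7.83 and 8.36. Enrichment of at least 10-fold in both replicates was reached by 2178 members (13.8%), against 31.2% of intergenic peaks with H3K27ac and 12.6% of unmarked gene body peaks.

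The rule asks that the peaks of the 2 replicates overlap, which keeps their summits close, so the distance between them is given as a description only. It had a median of 26 bp and was within 50 bp for 74.1% of members. Across the 15727 members, which share libraries, Spearman's rho between the folds was 0.721. The replicate 2 list joined some neighbouring members into 1 peak: the members overlapped 14466 replicate 2 peaks, and 2471 members (15.7%) shared theirs with another member. Those 2471 had median folds of 5.11 and 6.78 and a rho of 0.430. The 13256 members that shared theirs with no other member had median folds of 6.49 and 6.34 and a rho of 0.797. Sharing with an ATAC-seq peak that is not a member was not counted, so some of the 13256 may also be parts of a joined peak.

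**Figure D1:**
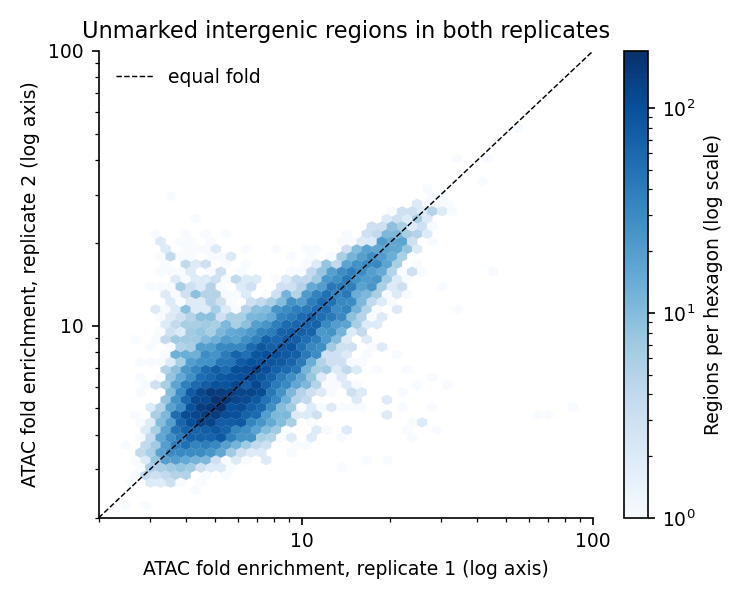
ATAC-seq fold enrichment of the 15727 unmarked intergenic regions in replicate 1 (x axis) and replicate 2 (y axis), both on log axes; the shade gives the number of regions per hexagon and the dashed line marks equal folds. Most regions lie near the line around 5- to 9-fold, and of the 2471 regions that share a replicate 2 peak with another, 72.2% lie above it.

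Some of the strongest members were narrow peaks. In a single replicate, folds reached 88.7 in replicate 1 and 52.2 in replicate 2. The region upstream of Ccdc90b, which encodes a mitochondrial coiled-coil protein, was 116 bp wide with 56.1-fold enrichment in replicate 1 and 52.2-fold in replicate 2. The region near Scg2, a granin of secretory vesicles, was 111 bp wide with 40.9- and 33.9-fold enrichment. Both widths lay below the median of all members, and the nearest H3K27ac peaks were 21646 and 114315 bp away. A region 325180 bp from Actbl2, a beta-actin-like gene, was 335 bp wide with folds of 33.7 and 39.7 and held an AP-1 match, and one 200357 bp from Gm11042 was 330 bp wide with folds of 32.5 and 32.2. At the other end, the weakest member, 7214 bp from Trim8, had folds of 2.88 and 2.22.

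Peaks lay close to the 3 kb limit on both sides. The members closest to the limit were at 3002 bp from a TSS of Cma2, a mast cell chymase gene, 3003 bp from Arrdc2 and 3004 bp from Cdkn1c, the cell cycle inhibitor p57, measured from the peak's nearest edge. Their folds were 4.49 and 5.43, 5.67 and 7.13, and 3.95 and 2.93 in replicates 1 and 2. The unmarked intergenic peaks just within it lay 3000 bp from Chst12, 2999 bp from the pseudogene Gm4535 and 2995 bp from the pseudogene Gm12149, with folds of 3.5 and 3.51, 7.17 and 8.69, and 8.33 and 6.43. The folds of the 3 inside and the 3 outside overlapped.

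Unmarked regions were spread widely around genes, at much the same distances as acetylated ones. The median distance from summit to the nearest TSS of any gene was 16065 bp, with quartiles of 8509 and 31894 bp, against 15038 bp for intergenic peaks with H3K27ac and 12548 bp for unmarked gene body peaks. With replicate 2 as the base list the 3 medians were 16181, 15000 and 12541 bp. To the nearest protein-coding TSS the median was 33875 bp for members and 31535 bp for intergenic peaks with H3K27ac. Members lay upstream of their nearest TSS in 55.4% of cases. That share was 61.5% at 3 to 10 kb, 53.7% at 10 to 50 kb, 48.9% at 50 to 100 kb and 47% at 100 to 500 kb. It was 55.2% at intergenic peaks with H3K27ac and 39.8% at unmarked gene body peaks. The rule leaves out gene bodies, which lie downstream of a TSS, so an excess of upstream members near genes is built in. The member farthest from any TSS lay 372760 bp from the pseudogene Gm21006 and 822223 bp from Epha5, an ephrin receptor gene, with folds of 7.15 and 6.17.

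**Figure D2:**
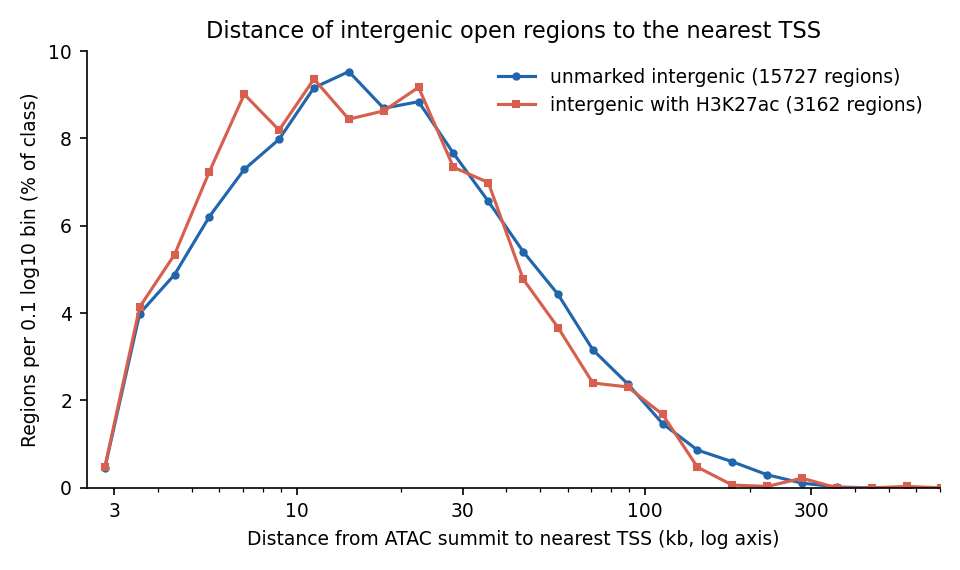
Percent of regions (y axis) per 0.1 log10 bin of distance from the ATAC-seq summit to the nearest TSS in kb (x axis, log), for the 15727 unmarked intergenic regions (circles) and the 3162 intergenic peaks with H3K27ac (squares). Both curves peak between about 10 and 30 kb, and their medians are 16065 and 15038 bp.

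Density was lower farther from the nearest TSS. Intergenic sequence beyond 3 kb of a TSS came to 1299 Mb without gaps, 47.7% of the assembled genome, and held 12.1 members per Mb, or 1 member per 82.6 kb. Members covered 0.213% of it. Their density was 18.3 per Mb at 3 to 10 kb, 14.2 at 10 to 50 kb, 6.75 at 50 to 100 kb and 2.93 at 100 to 500 kb, and none lay beyond 500 kb, a class of only 0.723 Mb. Intergenic peaks with H3K27ac went from 4.11 to 2.79, 1.14 and 0.428 per Mb over the same 4 classes, so the number of members per acetylated peak went from 4.45 to 5.08, 5.91 and 6.86. Median fold changed little across the classes, from 6.13 to 6.47 in replicate 1 and from 6.26 to 6.78 in replicate 2.

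**Figure D3:**
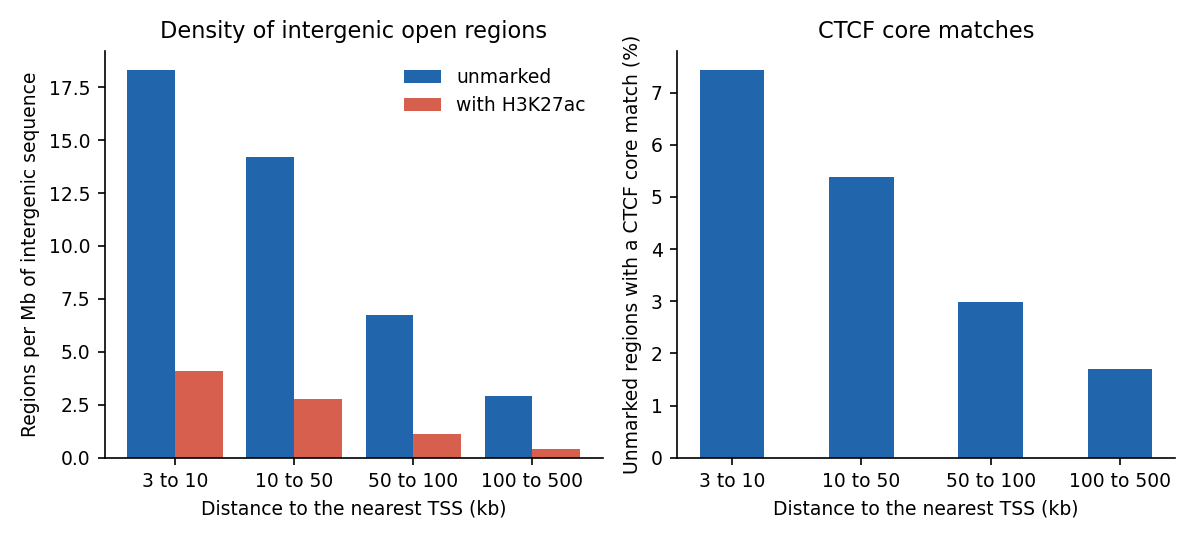
Left, regions per Mb of intergenic sequence (y axis) in 4 classes of distance to the nearest TSS (x axis) for unmarked intergenic regions and intergenic peaks with H3K27ac. Right, percent of unmarked intergenic regions with a CTCF core match within 200 bp around the summit, in the same classes. All 3 measures are highest at 3 to 10 kb and lowest at 100 to 500 kb: 18.3 to 2.93 and 4.11 to 0.428 regions per Mb, and 7.43% to 1.70%.

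Chromosomes differed several-fold in density. Chromosome 11 had the most members per Mb of its intergenic sequence at 21.5 (1065 members), followed by chromosome 17 at 18.1 and chromosome 9 at 16.8. Among autosomes, chromosome 14 had the fewest at 9.17 and chromosome 3 was next at 9.74. The X chromosome held 2.31 members per Mb (240 members), and the Y chromosome none, with 5 shared ATAC-seq peaks in all. Chromosome 11 also had 13.4 protein-coding genes per Mb, against 7.22 on chromosome 14 and 5.54 on X. Members made up 15.7% of the shared ATAC-seq peaks on X, within the autosomal range of 13.5% to 22.1%.

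Members often lay close together. Another member lay within 10 kb of 64.0% of them and within 1 kb of 33.1%, and the median gap to the nearest other member was 4361 bp. Members that share a replicate 2 peak, 15.7% of them, count as neighbours here. With replicate 2 peaks as the base list the share within 10 kb was 58.2%. Unmarked gene body peaks had a like share of 65.7% within 10 kb and a median gap of 4145 bp, while intergenic peaks with H3K27ac had 72.4% and 261 bp. Joining members separated by at most 10 kb left 5665 members (36%) alone and formed 3653 chains, 298 of them with at least 5 members. The chain with the most members had 14 over 36.4 kb near Srp9, a signal recognition particle gene, with folds of 3.61 to 10.2 in replicate 1 and 3.20 to 10.7 in replicate 2. Chains of 13 members lay near B4galt5 and Slc9a8 (50.7 kb long) and near Dlk1, the imprinted delta-like gene (31.4 kb), and a chain of 12 near Adra2c and Lrpap1 (45.3 kb).

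A small number of intergenic intervals held many members while most held none. Of the 26733 intervals between genes longer than 6 kb, 23.7% held at least 1 member, and 104 held at least 10, together 1337 members (8.50%). The interval between Syf2, a splicing factor gene, and Gm16225 held the most, 27 members and 4 acetylated peaks in 181 kb (chr4:134937549-135118220). It was followed by Gadd45g to Gm26651 with 22 in 125 kb (chr13:51848469-51973213), Rxra, the retinoid X receptor gene, to 2810430I11Rik with 20 in 120 kb, and by Rybp to Gm23234 in 207 kb and Gm49723 to Gm28003 in 198 kb with 19 each. The Gm49723 interval lies upstream of Runx1. Highest folds in these 5 intervals ran from 14.9 to 19.9 in replicate 1 and from 14.5 to 23.3 in replicate 2.

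Among intervals with at least 5 members, short ones came first by members per 100 kb. The interval between Gm44956 and Irs2, which encodes an insulin receptor substrate, held 5 in 13.9 kb (36.1 per 100 kb), and that between Gm37168 and Nenf 6 in 18.1 kb (33.2). The intervals from Ncs1 to Hmcn2 and from Gm13450 to Hc held 6 each in 18.4 kb (32.6). An acetylated ATAC-seq peak lay in 1 of these 4, the Ncs1 interval. In contrast, 99 of the 130 intervals over 500 kb held no member, the longest being 1255 kb between 9330185C12Rik and Gm4854. In bins of 1 Mb, the median was 3 members and the highest 53, 911 of 2737 bins (33.3%) had none, and the top 10 percent of bins held 40.2% of members.

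The rule asks only that members overlap no mark peak. The median gap to the nearest H3K27ac peak of either replicate was 27408 bp, to H3K4me3 28201 bp and to H3K27me3 243451 bp. An H3K27ac peak lay within 1 kb of 6.15% of members and within 10 kb of 25.6%, while 18.5% were over 100 kb from one. For unmarked gene body peaks these shares were 9.10%, 32% and 14.3%. The widest gap, 6140232 bp, was at a member 155384 bp from Cdh10, a cadherin gene, with folds of 10.9 and 8.02. Gaps ran from 14823 bp at 3 to 10 kb from a TSS to 28541, 74963 and 175227 bp in the 3 farther classes.

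The 12 protein-coding genes nearest to most members had 27 to 35 each. Members that share a replicate 2 peak, 15.7% of all members, are counted separately here, so close ranks may depend on such splitting. Cd83, an immunoglobulin-family surface protein of activated immune cells, Cxcr4, the receptor for the chemokine Cxcl12, and Gadd45g, a stress-induced growth arrest gene, had 35 each. Bcor, the Bcl6 corepressor, and the zinc finger gene Zfp608 had 33, Rybp, a Polycomb subunit, had 32, and the zinc finger gene Tshz3 had 29. Runx1, a Runt factor, and Sox9, an SRY-box factor, had 28, and Klf4, a Krüppel-like factor, Med13l, a Mediator subunit, and Tle3, a Groucho corepressor, had 27. Mki67 and Tbl1xr1 were next with 25. All 12 genes had ATAC-seq and H3K4me3 peaks at their promoters in both replicates, and 11 had H3K27ac, the exception being Cd83. Over all 21938 protein-coding genes the shares were 67.8% for ATAC-seq, 60.8% for H3K4me3 and 46.6% for H3K27ac. H3K27me3 was listed at 0 of the 12 promoters in both replicates. Its share over all protein-coding genes was 4.81%, so 0 of 12 does not set these genes apart.

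Members around these genes differed in side and reach. Around Gadd45g 2 of 35 lay upstream, with a median distance of 83843 bp, and around Cxcr4 30 of 35 lay upstream, with a median of 109331 bp. Runx1 had 26 of 28 upstream (median 143364 bp) and Klf4 24 of 27 (median 190102 bp), while Bcor had 4 of 33 upstream. The farthest member of Sox9 was 821002 bp away and that of Rybp 221268 bp. Median folds at the 12 genes lay between 5.11 and 8.06 in replicate 1 and between 5.42 and 8.32 in replicate 2, which spans the medians of all members. Acetylated intergenic peaks numbered 13 at Med13l, 7 at Cxcr4, Bcor and Tle3, and 0 at Rybp. Of the 369 members at the 12 genes 4 held a CTCF core, 1 each at Cd83, Cxcr4, Zfp608 and Med13l. Over all members the share was 5.65%, and it was lower farther from the nearest TSS of any gene, 1.70% at 100 to 500 kb. The part of distance in the count at these genes was not tested.

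**Figure D4:**
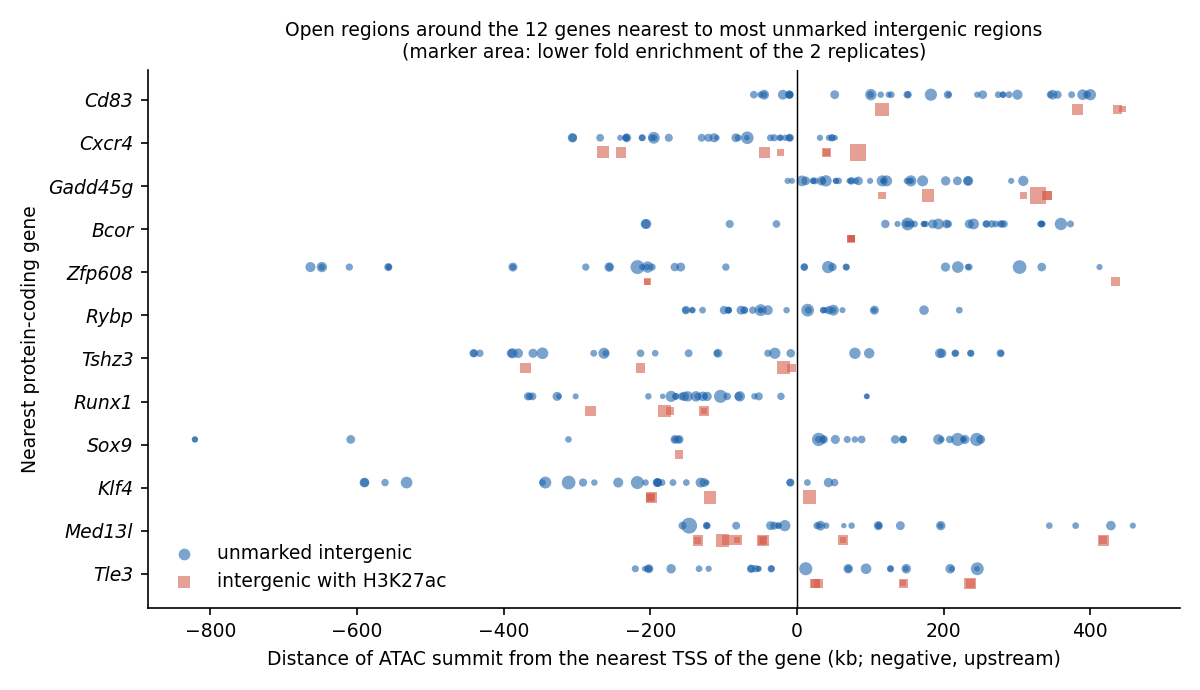
ATAC-seq summits around the 12 protein-coding genes nearest to most unmarked intergenic regions, by distance in kb from the gene's nearest TSS (x axis, negative upstream); circles are unmarked regions, squares intergenic peaks with H3K27ac, and marker area follows the lower fold of the 2 replicates. Circles outnumber squares at every gene, from 32 against 0 at Rybp to 27 against 13 at Med13l. Over all intergenic sequence there were 4.97 unmarked regions per peak with H3K27ac.

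Across the genome the members fell on a minority of genes. Of 21938 protein-coding genes, 5428 (24.7%) were nearest to at least 1 member, 2294 of them to exactly 1, and the 212 genes with at least 10 took 3075 members (19.6%). The nearest TSS of any kind belonged to a protein-coding gene for 41.7% of members, to a lincRNA for 22.4% and to a processed pseudogene for 17.5%. lincRNAs made up 10.6% of the genes annotated, and their share was 21.5% at intergenic peaks with H3K27ac.

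The listed markers of the labelled cell type were open at their promoters. All 13 muscle stem cell genes had ATAC-seq and H3K4me3 promoter peaks in both replicates and 12 had H3K27ac, the exception being Calcr, a calcitonin receptor of quiescent MuSCs. Over all protein-coding genes the shares were 67.8% for ATAC-seq, 60.8% for H3K4me3 and 46.6% for H3K27ac. Of 10 endothelial markers 8 had an ATAC-seq promoter peak and 1 H3K27ac, of 9 blood cell markers 7 and 1, of 10 fibro-adipogenic markers 6 and 3, of 10 myofibre genes 9 and 3, and of 10 neuronal genes 8 and 1, so ATAC-seq promoter peaks were found at most markers of other cell types as well, and H3K27ac promoter peaks at few. H3K4me3 promoter peaks were at 5 of 10 endothelial, 4 of 9 blood and 5 of 10 fibro-adipogenic genes. They were at 5 of 10 myofibre and 4 of 10 neuronal genes. The part of other cell types in the members was not tested.

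Most of the myogenic genes had members nearby. Of 13 muscle stem cell markers 7 had at least 1 member (21 members in all) and of 15 myogenic regulators 12 had (84 members), that is 53.8% and 80.0%, beside 24.7% of all protein-coding genes. The other lists had 6 of 10 endothelial genes (31 members), 5 of 9 blood genes (22), 4 of 10 fibro-adipogenic genes (18), 2 of 10 myofibre genes (5) and 2 of 10 neuronal genes (2). The size of the gene's intergenic surroundings enters each count.

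Pax7 had 3 members, all upstream, at -19347, -25323 and -43926 bp from its TSS. Their folds were 5.88, 17.1 and 4.64 in replicate 1 and 5.70, 13.8 and 5.24 in replicate 2, so the middle region stood above the other two in both. The 2 farther ones held a CTCF core, and the middle one is printed above. An acetylated peak lay at -7748 bp with folds of 5.74 and 6.24.

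Myod1, the myogenic determination factor, had 5 members at -34760, -23096, -12091, 4273 and 6279 bp. In that order, fold enrichment was 12.4, 9.45, 6.23, 5.62 and 4.34 in replicate 1 and 13.6, 8.81, 6.44, 4.78 and 5.53 in replicate 2. The regions ranked alike in both replicates except for the 2 downstream ones. The region at -23096 bp (chr7:46353249-46353751) began just past the end of an acetylated peak at -23241 bp (chr7:46353154-46353246). Both had a replicate 2 fold of 8.81, as parts of 1 replicate 2 peak would. If so, the region counts as unmarked only because the replicate 1 list splits that peak. The 707 bp region at -34760 bp was wider than most members and lay 3094 bp from an H3K27ac peak. No Myod1 member held a CTCF core.

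Myog, the gene of the differentiation factor myogenin, had 5 members, all upstream, and no intergenic peak with H3K27ac. The regions at -23935 and -12981 bp were the strongest, with folds of 11.9 and 10.5 in replicate 1 and 15.1 and 12.8 in replicate 2. Those at -13789 and -4080 bp had 5.41 and 6.05 in replicate 1 and 5.2 and 5.84 in replicate 2. The region at -12694 bp had 3.33 in replicate 1 and shared the 12.8-fold replicate 2 peak of its neighbour. The promoter of Myog had H3K4me3 in both replicates, while H3K27ac was not found in both.

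The other muscle stem cell markers had 0 to 5 members each. Msc, the gene of the myogenic repressor musculin, had 5 members, of which the one at -25574 bp reached 19.4- and 20.1-fold and the others stayed at or below 7.83- and 11.7-fold. Chrdl2 had 2 members that shared a 13.1-fold replicate 2 peak, with 12.4- and 5.93-fold in replicate 1. Notch3, a Notch receptor, and Heyl, a Notch target gene, had 1 each, at 11.0- and 9.09-fold and at 9.12- and 8.53-fold. Vcam1, an adhesion molecule used to sort MuSCs, had 4. The highest fold was 8.17 in replicate 1, at a region with 7.40 in replicate 2, and 10.0 in replicate 2, at a peak shared by 2 regions with 8.09 and 5.47 in replicate 1. Myf5, Cdh15, Itga7, Calcr, Spry1 and Sdc4 had 0.

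Among the regulators, Runx1 had 28 members and Mef2a, a MADS-box factor of muscle genes, had 9, all upstream, the strongest with 19.6- and 24-fold enrichment 18101 bp from the TSS. Eya1, a transcriptional cofactor, had 8 with up to 15- and 17.3-fold, and Tcf4, an E-protein gene, 8 with up to 15- and 11.7-fold. Lbx1, a factor of migrating muscle precursors, and Met, the receptor for hepatocyte growth factor, had 5 each. Highest folds were 9.53 and 7.05 at Lbx1, and 10.2 and 9.87 at Met. Mef2d had 4, Tcf12 3 and Mef2c 2, the last with at most 5.79- and 5.24-fold. Pax3, Myf6 and Six4 had 0, and Pax3 was the gene of the regulators with an H3K27me3 promoter peak.

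Few olfactory and vomeronasal receptor genes were nearest to a member, and the size of a gene's intergenic surroundings enters these counts too. Of 1093 olfactory receptor genes (Olfr) 17 were nearest to a member (1.56%), and of 327 vomeronasal receptor genes (Vmn1r and Vmn2r) 4 (1.22%), with 29 and 5 members. Zinc finger genes named Zfp had a member at 61 of 394 (15.5%), with 258 in all. Developmental families had 5 of 39 Hox genes (12.8%), 11 of 19 Sox genes (57.9%), 18 of 44 Fox genes (40.9%) and 5 of 13 Tbx genes (38.5%), against 24.7% of all protein-coding genes. Foxo1, a forkhead factor of the insulin pathway, had 19 members, Zfp536 18, Tbx3 17, Sox6 16 and Sox11 15.

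The promoters nearest to members were mostly open and trimethylated at H3K4, and most members faced an acetylated one. The nearest protein-coding promoter, counted as a peak in both replicates within 3 kb of a TSS of the gene, had ATAC-seq for 87.5% of members, H3K4me3 for 79.5%, H3K27ac for 62.3% and H3K27me3 for 6.80%, and none of the 3 marks for 19.1%. Intergenic peaks with H3K27ac had 90.6%, 82.4%, 71.8% and 3.04%, and unmarked gene body peaks 93.7%, 86.9%, 68.8% and 7.72%. Over all shared ATAC-seq peaks the shares were 94.6%, 87.3%, 69.7% and 6.86%, with 11.4% having none of the marks. Members were thus below all shared peaks for ATAC-seq, H3K4me3 and H3K27ac. Counted by gene, H3K27ac was at 56.9% of the 5428 genes with at least 1 member and 77.8% of the 212 with at least 10, beside 46.6% of all 21938. H3K27me3 was at 7.04%, 5.19% and 4.81%. The share with H3K27ac was 57.2% for members under 10 kb from the protein-coding TSS, 62.2% at 10 to 50 kb, 64.4% at 50 to 100 kb and 65.5% at 100 to 500 kb, then 53.6% of the 209 members beyond 500 kb.

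Members were richer in G and C and poorer in repeats than intergenic sequence as a whole. In 200 bp around the summit their median GC content was 51.5%, against 40.5% over all intergenic sequence, 53.5% at intergenic peaks with H3K27ac and 59.5% within 3 kb of a TSS. The median ratio of observed to expected CpG was 0.208, with 3 CpG per window, against 0.270 at intergenic peaks with H3K27ac and 0.565 within 3 kb of a TSS. Unmarked gene body peaks were close to members, with a median GC content of 52.0% and a CpG ratio of 0.204. Repeats made up 9.05% of the bases in members' windows and 43.7% of intergenic bases. Other open regions were slightly poorer in repeats, with 8.35% at intergenic peaks with H3K27ac and 8.23% at unmarked gene body peaks. The share was 6.88% within 3 kb of a TSS and 7.74% over all shared ATAC-seq peaks. The summit itself lay in a repeat in 7.31% of members and 6.23% of all shared peaks. Reads with a mapping quality under 30 had been removed before peaks were called, and the part of that filter in the repeat share was not tested.

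Of the 10 motifs searched, the CTCF core had the largest ratio between members and their surroundings, 35.5, followed by AP-1 with 4.74 and the E-box with 3.24. The motifs differ in length, and the flanking windows were not matched for GC content or repeats, so the ratios are not on 1 scale. A 12-base CTCF core consensus was matched by 888 of 15727 members (5.65%), by 0.159% of 31454 windows 2 kb to either side, by 1.27% of intergenic peaks with H3K27ac, by 3.86% of unmarked gene body peaks and by 3.18% of all shared ATAC-seq peaks. With replicate 2 as the base list the shares were 5.94% for members, 1.14% with H3K27ac and 3.99% in gene bodies. When the ATAC-seq and mark lists of 1 replicate were taken alone, the share was 3.29% for replicate 1 and 5.06% for replicate 2. Allowing 1 mismatch gave 15.3% of members, 2.42% of flanking windows and 5.85% of intergenic peaks with H3K27ac. The ratio between members and flanking windows was then 6.34. Matches lay near the summit: 712 of the 888 (80.2%) were within 50 bp of it, the median being 21 bp.

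Members with a CTCF core were closer to genes than the rest. Their median distance to a TSS was 11986 bp, against 16461 bp for the 14839 without one, and the share with a core went from 7.43% at 3 to 10 kb to 5.38%, 2.98% and 1.70% in the farther classes. Their nearest protein-coding promoter had H3K27ac in 53.0% of cases, against 62.9% without a core. Median folds were 7.02 and 6.71, against 6.26 and 6.45. By the lower fold of the 2 replicates, the strongest, near Phlda3, a p53 target gene, had folds of 30.1 and 26.8, followed by regions near Tef with 23.2 and 21.9 and near Scgb1a1 with 22.2 and 20.2.

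AP-1 and E-box matches were the most frequent. TGANTCA, the AP-1 site, was in 29.2% of members, 6.16% of flanking windows, 21.3% of intergenic peaks with H3K27ac and 28% of unmarked gene body peaks. CAGCTG, the E-box read by MyoD, was in 30.5% of members, 9.42% of flanking windows, 35.6% of intergenic peaks with H3K27ac and 31.8% of unmarked gene body peaks. TGTGGT (RUNX) was in 19.2% of members and 15.8% of flanking windows, GGAATG (TEAD) in 14.6% and 11.0%, and TTGGCA (NFI) in 16.4% and 10.3%. TCAGGTT (MEF3) was in 2.48% and 3.04%, and the MEF2 consensus in 0.540% and 0.315%. GGGCGG, the GC box, was in 6.42% of members, 13% of intergenic peaks with H3K27ac and 36.5% of peaks within 3 kb of a TSS, and CCGGAAGT (ETS) in 0.369%, 0.791% and 2.36%. All 10 motifs were searched on both strands, none contains another, and a match is a run of letters, not evidence of binding.

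**Figure D5:**
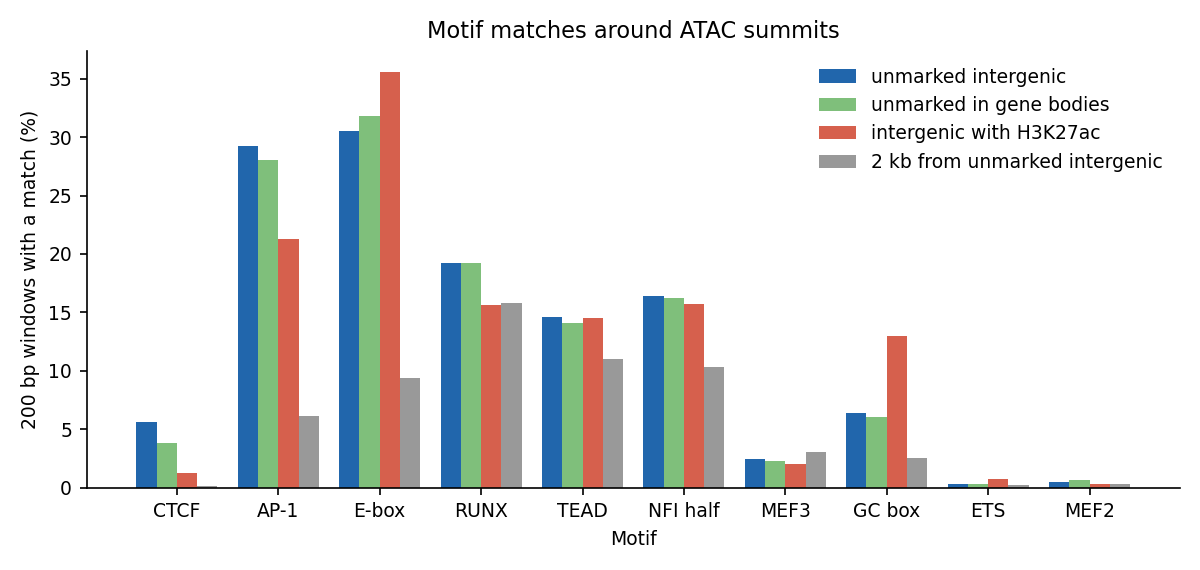
Percent of 200 bp windows around ATAC-seq summits with at least 1 match (y axis) to each of 10 motifs (x axis), in 15727 unmarked intergenic regions, 22385 unmarked gene body peaks, 3162 intergenic peaks with H3K27ac and 31454 windows 2 kb from the unmarked intergenic regions. The CTCF bar is 5.65% for unmarked intergenic regions against 1.27% for those with H3K27ac, and the GC box bars are in the opposite order, 6.42% against 13%.

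AP-1 and E-box matches were more frequent in stronger members. Members were split into 10 groups of equal size by the lower fold of the 2 replicates. From the weakest to the strongest group, the share with AP-1 went from 21.6% to 43.7% and that with an E-box from 26.3% to 38.7%. RUNX went the other way, from 19.8% to 17%. The CTCF share was 3.88% in the weakest group, highest at 7.57% in the group from 6.31- to 7.25-fold, and 5.85% in the strongest. The strongest group began at 11.2-fold, and 20.1% of members with AP-1 passed 10-fold in both replicates against 11.3% without it. In the strongest 10 percent of unmarked gene body peaks AP-1 was in 43.4%, against 26.3% of the others, and at intergenic peaks with H3K27ac in 39.6% against 19.3%. Peaks within 3 kb of a TSS had the opposite order, 7.73% against 12.4%, and over all shared ATAC-seq peaks the shares were 21.3% and 19.7%. CTCF and AP-1 matches occurred together in 45 members.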

How the data were processed

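ATAC-seq and ChIP-seq for H3K4me3, H3K27ac and H3K27me3 were deposited as 1 peak list per library, 2 replicates each, for FACS-sorted MuSCs of Pax7Cas9 mice. According to the methods of the study, reads were trimmed with Trim Galore 0.6.10, aligned to mm10 with BWA 0.7.17-r1188 and filtered for a mapping quality of at least 30, duplicates and blacklisted regions with SAMtools 1.5, Sambamba and BEDTools. Tn5 offsets were corrected with deepTools 3.5.5, and peaks were called with MACS2 2.2.6, which the authors ran per library. The deposited fold enrichment is a ratio of summit signal to local background, and the deposited significance is -log10 of the p-value and q-value. H3K27me3 lists were made with a p limit of 0.001, as their file names state. ATAC-seq lists held 140937 and 94574 peaks, H3K4me3 20519 and 18006, H3K27ac 24217 and 18589, and H3K27me3 6080 and 10485.

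Peaks on the 21 assembled chromosomes were compared by overlaps of at least 1 bp in Python 3.11.15 with numpy 2.4.6 and scipy 1.17.1, after the code had been tested on simulated intervals. Each region was set against the replicate 2 peak that overlapped it most. TSSs were those of all transcripts of 55413 GENCODE M21 genes, and distances to a TSS were measured from the summit unless an edge is named. Gene bodies included introns. Motifs were searched in 200 bp around summits, with windows 2 kb to either side for background. Named genes were the 12 nearest to most regions, those of the 2 muscle lists, those of the 5 strongest regions, those flanking the 5 fullest and 5 densest intervals, and those at the distance limits. Other genes with values here were named after these were seen. The members, gene lists and rules were chosen with earlier results of these data known. The targeted deep sequencing samples of the series were not used here. A few genes and regions that these rules would name are not reported here.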

Additional observations from a re-analysis of the deposited data

How the results depend on the processing

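Alternatives were computed for 7 values: the number of regions, their share of shared ATAC-seq peaks, their median distance to a TSS, their density, and the shares with another region within 10 kb, with H3K27ac at the nearest promoter and with a CTCF core. Of 74 alternatives, 59 left the number within 1.5 times, or the other values within 1 SD between the replicates taken alone. The other 15 moved. Each SD rests on 2 values that are themselves among the alternatives, so it is a loose limit. It was 7.47 per Mb for density, 2288 bp for distance and 2.03 percentage points for the share of shared peaks. For the shares within 10 kb, with H3K27ac at the promoter and with a CTCF core it was 3.83, 2.75 and 1.25 points. Beyond 10 kb of a TSS the share of shared peaks was 12.2% and the median distance 24050 bp, and with protein-coding genes only they were 23.1% and 35695 bp. The share with another region within 10 kb was 58.6% where ATAC-seq peaks needed a -log10 q of 5 or more, 58.2% with replicate 2 peaks as the base list and 84.8% within 50 kb. A CTCF core with at most 1 mismatch was found in 15.3%. Changes with the distance, the gene set, the 50 kb gap and the mismatch follow from how these alternatives are built, and for the q limit and the base list the cause was not tested. Without replicate 1 or without replicate 2, no overlap between replicates was asked for, and only the mark lists of the remaining replicate were used. The number of regions then ranged from 19733 to 33465, their share from 20.9% to 23.8% and the median distance from 16128 to 19364 bp. The density ranged from 15.2 to 25.8 per Mb and the share within 10 kb from 61.9% to 67.3%. The share with H3K27ac at the nearest promoter ranged from 58.9% to 62.8% and the CTCF share from 3.29% to 5.06%. The higher number came from replicate 1, which listed 140716 peaks against 94382.

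No paired analysis was possible because no result comes from a test. With no reads at hand, depth cannot be given, and a mark below the peak caller's threshold counts as absent.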
